A study of Mus musculus with 12 samples.

Results

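The genes described here encode the subunits of oxidative phosphorylation and some of their assembly factors, measured in bone marrow stem cells of the mouse sorted with or without surface CD49. A gene was included when a probe set on the MOE430A or MOE430B array design carried exactly 1 gene symbol, and that symbol began with Ndufa, Ndufb, Ndufc, Ndufs, Ndufv, Sdha, Sdhb, Sdhc, Sdhd, Uqcr, Cox4, Cox5, Cox6, Cox7, Cox8 or Atp5. This gave 94 genes, from 185 probe sets, of the 18193 genes with such a probe set. Where a gene had several, the one with the highest mean log2 value over the 6 samples stood for it. The 94 genes comprise 82 subunits, of which 34 belong to complex I, 4 to complex II, 8 to complex III, 19 to complex IV and 17 to complex V, and 12 assembly factors (Ndufaf1 to Ndufaf8 and Sdhaf1 to Sdhaf4), which help build complexes I and II but are not part of them. Ndufa4 and its relative Ndufa4l2 are counted with complex IV, where the Ndufa4 protein is found. Other known subunits, among them Ndufa11 and Ndufs6, whose probe sets carry several symbols, were not analysed here.

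Complexes I and II pass electrons from NADH and succinate to ubiquinone, complex III passes them on to cytochrome c, and complex IV hands them to oxygen. Complexes I, III and IV pump protons across the inner mitochondrial membrane, and complex V, the ATP synthase, uses the return flow to make ATP. Blood stem cells are known for relying on glycolysis while at rest and for raising mitochondrial respiration when they begin to divide and differentiate.

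The labels describe bone marrow stem cells separated by flow cytometry into a CD49- and a CD49+ group, with 3 samples in each, both taken 0 h after the sort. About 30 cells went into each sample, at a purity estimated as 97.03%, and their RNA was amplified as cDNA by PCR before each sample was hybridised to 1 array of each design. CD49 is the family name of the integrin alpha subunits, and the labels name neither the subunit stained nor the strain, age, genotype or any treatment of the mice. The sample titles carry 2 prefixes, read here as 2 submissions: MZ1484 holds replicate 1 of each group, and MZ1468 holds replicates 2 and 3. Where the values of a group are listed below, the first is therefore the MZ1484 sample. Nothing says that samples came from separate animals or sorts, so the p-values cover only how these 6 samples scatter, and that scatter may be technical.

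Values are the authors' linear signals, given here as log2(signal + pseudocount), with a pseudocount of 27.01 on MOE430A and 140.0 on MOE430B. The highest signal of the Bacillus control probe sets on each array was taken as its background bound, and between 39.5% and 61.1% of the MOE430A probe sets, and between 16.5% and 28.6% of those on MOE430B, lay above it. Of 13 haematopoietic stem cell markers, 11 were measured and 7 lay above the bound in all 6 samples: Kit, Mecom, Hlf, Gata2, Tal1, Cd34 and Flt3. Of 6 erythroid markers measured, 0 lay above it in every sample, and their summed signal was 247 to 564. The summed signal of the granulocyte and monocyte markers was 18400 to 36600 in CD49- and 8020 to 52100 in CD49+ samples, with 3 of 10 above the bound throughout. That of the megakaryocyte markers was 11300 to 50400 in CD49- and 6450 to 14900 in CD49+ samples, with 0 of 7 above it throughout. The part of these other cell types in the results below was not tested. Of the B cell, T and natural killer cell, and stromal and endothelial markers measured, 2 of 6, 0 of 6 and 0 of 8 lay above it throughout. Of the integrin alpha genes Itga1 to Itga6, 3 did (Itga3, Itga4 and Itga6), and 0 were called between the CD49 groups in limma (0 at an unadjusted p under 0.05).

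Promoter sequence was taken from RefSeq for the assembly GRCm38.p6, where 78 of the 94 genes had a window. It ran from 250 bases before the gene start to a short stretch after it. Motifs were counted over the whole window, so a counted match can lie after the start. The stretches printed below lie before the start. NRF1 is a transcription factor known for binding the promoters of many nuclear respiratory genes. Its core motif, searched on both strands as GCGCA, any base, then GCGC, was found in 19 of the 78 windows (24.4%), against 5.19% of the 27025 genes in the table. By complex, it was found in 5 of 31 genes of complex I, 2 of 3 of complex II, 1 of 5 of complex III, 1 of 13 of complex IV and 6 of 15 of complex V, and in 4 of 11 assembly factors. Genes of complex IV thus carried it in 7.69% of windows and genes of complex V in 40%. The ETS family motif CCGGAAG was found in 22 windows (28.2%, against 9.93%), the YY1 motif AAGATGGCG in 7 (8.97%, against 1.64%) and the ERR motif CAAGGTCA in 4 (5.13%, against 1.76%), each searched on both strands. The ETS motif ends in the letters that open the YY1 motif, so a few matches can overlap, and a match describes the sequence and is not evidence that a factor was bound in these cells. The stretches of 60 bases below, with the NRF1 motif in capitals, belong to genes on which the results turn. Atp5c1 and Cox6a1 are among the subunits that varied least, Ndufa5 had the second smallest CD49 p-value, Sdha is the catalytic subunit of complex II, and Ndufaf4 is among the genes that varied most.
Atp5c1, chr2:10080433-10080492, minus strand: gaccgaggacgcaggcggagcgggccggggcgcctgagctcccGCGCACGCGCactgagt
Cox6a1, chr5:115349086-115349145, minus strand: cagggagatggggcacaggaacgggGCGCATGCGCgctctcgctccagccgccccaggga
Ndufa5, chr6:24527691-24527750, minus strand: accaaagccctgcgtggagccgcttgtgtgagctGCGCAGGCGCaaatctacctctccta
Sdha, chr13:74350304-74350363, minus strand: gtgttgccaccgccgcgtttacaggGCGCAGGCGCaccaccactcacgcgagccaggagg
Ndufaf4, chr4:24897945-24898004, plus strand: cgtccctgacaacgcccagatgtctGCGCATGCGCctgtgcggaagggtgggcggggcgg
The first motif base lies 17 bases before the gene start in Atp5c1, 162 in Cox6a1, 26 in Ndufa5, 98 in Sdha and 113 in Ndufaf4. Cox6a1 has another match at 117 bases and Sdha has others at 55 and 10, while the Ndufa5 match also lies 190 bases before another start listed for that gene.

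Most subunits were detected in every sample. Of the 82 subunits, 71 (86.6%) lay above the background bound in all 6 samples, against 4806 of the 18193 genes (26.4%), and 6 lay above it in none, counted on the probe set that stood for each gene. All 17 genes of complex V and all 8 of complex III were above it throughout, as were 31 of 34 in complex I, 13 of 19 in complex IV and 2 of 4 in complex II. Assembly factors were detected less evenly, with 5 of 12 (41.7%) above the bound in all samples and 0 above it in none. Of the 94 genes, 90 passed the filter for testing, a mean at or above the median of their array design. The 4 that did not were Cox7b2, Cox7c, Cox8b and Sdhd.

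The subunits also varied little between samples on the probe sets that stood for them. The standard deviation over the 6 samples had a median of 0.27 (log2) over the 78 tested subunits and of 1.04 over all 11807 tested genes. It was under 0.5 for 58 of the 78 subunits (74.4%) and for 19.5% of all genes. By complex the median was 0.28 in complex I, 0.42 in complex II, 0.16 in complex III, 0.31 in complex IV and 0.20 in complex V. The steadiest were Atp5pb, the b subunit of the peripheral stalk of ATP synthase, with 14.50 to 14.68 and an SD of 0.07, and Atp5c1, the gamma subunit of the rotating shaft, with 14.96 to 15.12 and an SD of 0.07. Cox6a1, the broadly expressed form of that complex IV subunit, had 14.54 to 14.82 and an SD of 0.11. The CD49 groups overlapped in all 3 genes. Other tested probe sets of a gene could vary more or less than the brightest. Uqcr10 had an SD of 0.115 on the probe set used, and 3.77 and 2.52 on the others. Atp5a1 had 0.25 on the probe set used, and 0.30 and 0.16 on the others.

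Much of this went with signal level. Bright probe sets of any gene varied little, and 44 of the subunits lay between 14 and 15 on the log2 scale of MOE430A, where the median SD was 0.20 for them and 0.24 for all 545 probe sets. Between 13 and 14 it was 0.43 for 8 subunits and 0.49 for all 746, and between 12 and 13 it was 0.51 for 6 subunits and 0.89 for all 990. Between 10 and 12, by contrast, the 5 subunits had a median of 2.02 and all 2568 probe sets one of 1.54. The bright subunits thus varied about as little as other bright genes, and whether the array's upper range limits these values was not tested. The highest signal on an MOE430A array was 43496 to 66239, which is 15.41 to 16.02 on the log2 scale.

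**Figure D1:**
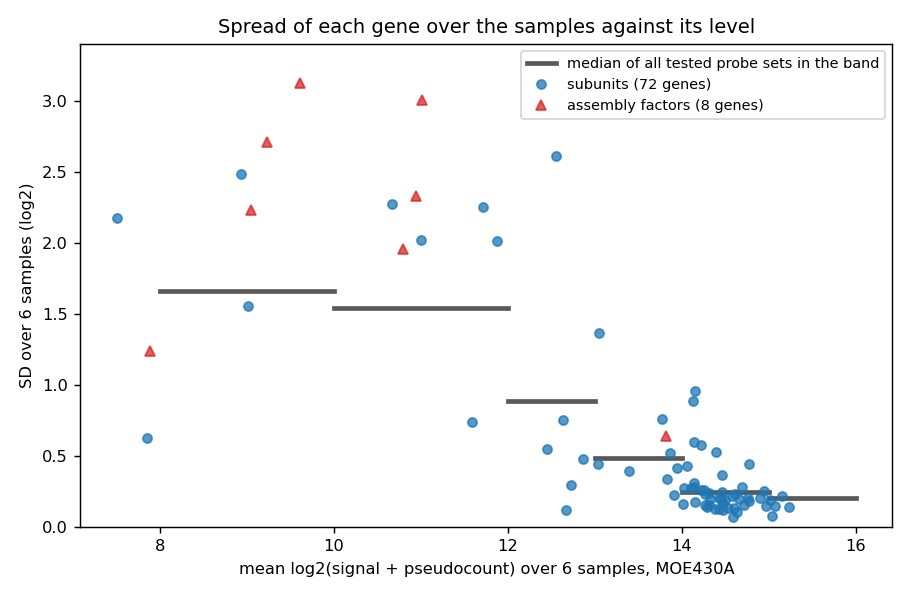
Standard deviation over the 6 samples (log2, vertical axis) against the mean log2(signal + pseudocount) of each tested gene on MOE430A (horizontal axis). Blue circles are subunits, red triangles are assembly factors, and grey bars are the median of all tested probe sets in each signal band; most subunits lie at 14 to 15 with an SD under 0.5, and 7 of the 8 assembly factors lie lower in signal with an SD over 1.

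Of the groups described here, the assembly factors varied most. Their median SD was 2.09, and it was over 1 for 10 of the 12, against 9 of 78 subunits (11.5%) and 51.9% of all genes. Many were dim, and dim probe sets of any gene varied more. Between 8 and 10 on MOE430A the median SD was 2.71 for 3 assembly factors and 1.66 for all 3816 probe sets. Between 10 and 12 it was 2.33 for 3 assembly factors and 1.54 for all 2568. The 32 tested assembly factors outside the symbol rule had a median SD of 1.33. Ndufaf3 and Ndufaf4, partners in an early step of complex I assembly, headed the list. Ndufaf3 had 6.69, 10.42 and 9.40 in the CD49- samples and 14.27, 5.71 and 11.20 in the CD49+ samples, an SD of 3.12. Ndufaf4 had 12.30, 12.73 and 11.18 in CD49- and 5.05, 11.61 and 13.17 in CD49+ samples, an SD of 3.01. The low value of Ndufaf4 in CD49+ replicate 1 lay under the background bound, and every other sample was above it. A second probe set of Ndufaf4 was at 4.87 in CD49- replicate 1 and 5.17 in CD49+ replicate 1, and between 11.74 and 12.68 in the other 4 samples, so the probe sets disagree on CD49- replicate 1. Ndufaf2, known for a late step of complex I assembly, was the steadiest assembly factor, with an SD of 0.56 and values between 16.10 and 17.77 on MOE430B.

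**Figure D2:**
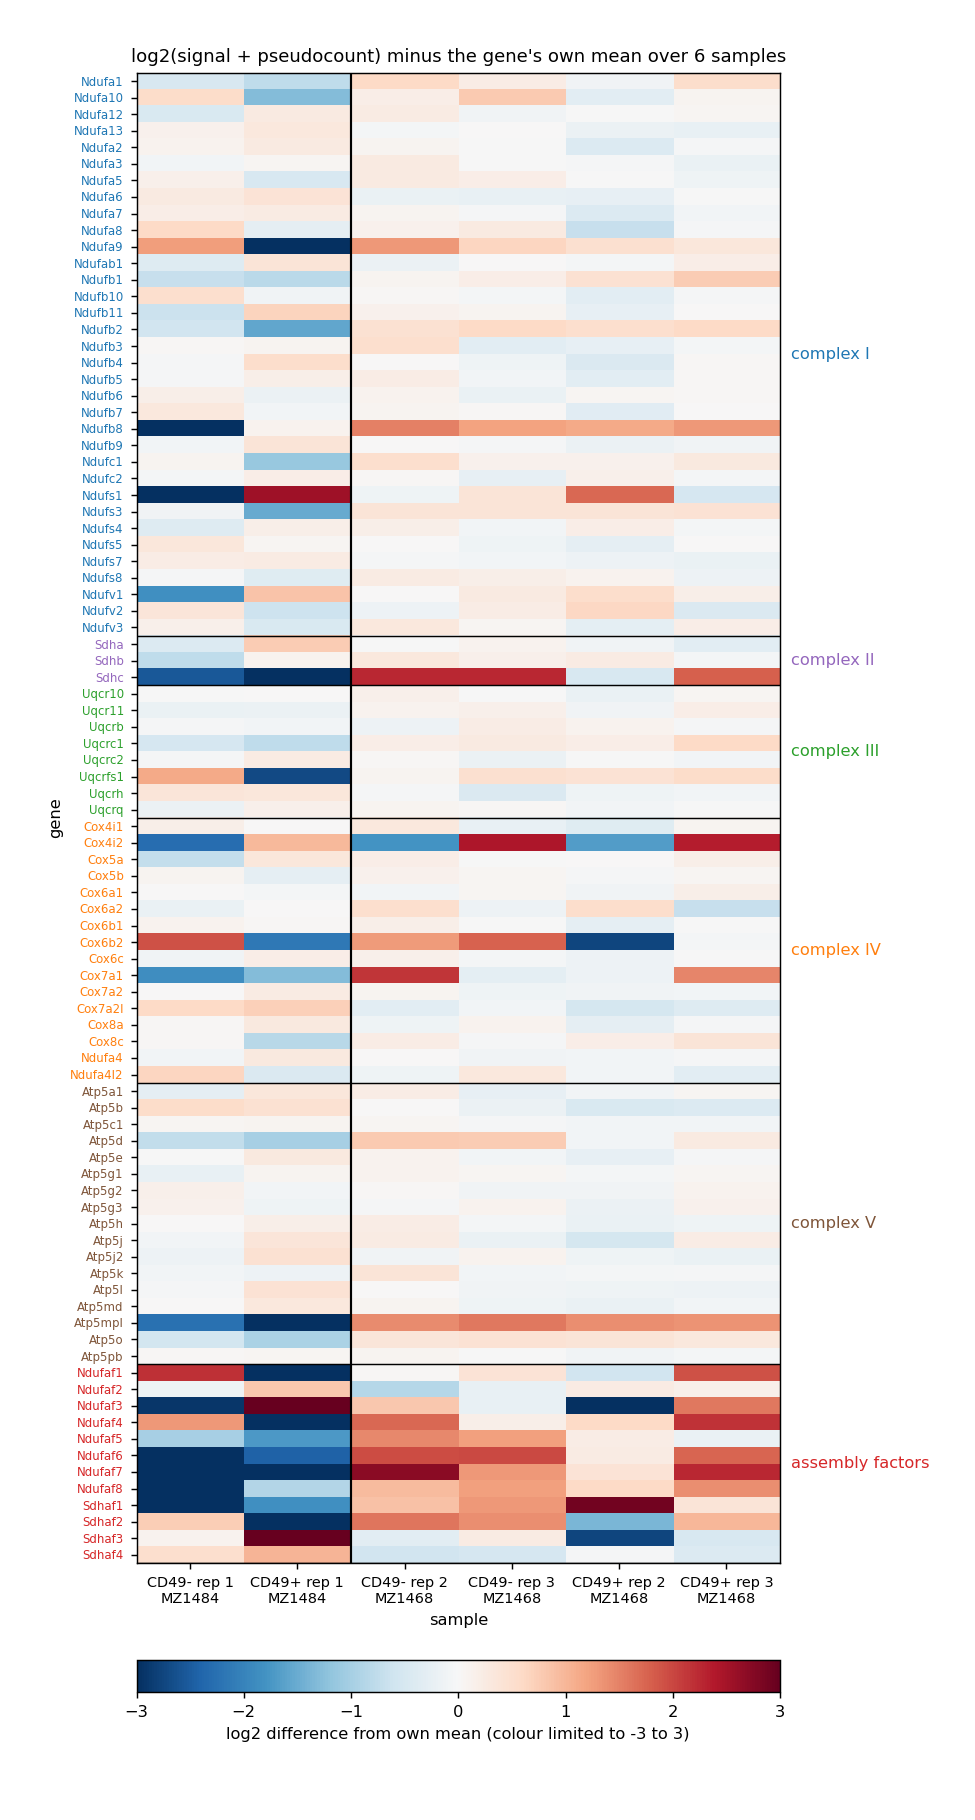
Difference of each of the 90 tested genes (rows, grouped by complex) from its own mean log2(signal + pseudocount) in each of the 6 samples (columns, the 2 MZ1484 samples left of the line). Red is above and blue below the mean; most subunit rows are pale, and the strong colours fall on the assembly factors and on single subunits such as Ndufb8, Ndufa9, Sdhc and Atp5mpl, mainly in the MZ1484 samples.

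No gene of oxidative phosphorylation differed between CD49+ and CD49- samples past the threshold. At an adjusted p of 0.05 in limma (Benjamini-Hochberg over all tested probe sets of an array design), 0 of the 90 genes were called, against 0 of all 11807 genes (0%). At an unadjusted p under 0.05, 2 of the 90 were lower in CD49+ samples, Cox6b2 and Ndufa5, against 2.93% of all genes in either direction and 2.08% lower. None was higher at that level, against 0.847% of all genes. The difference CD49+ minus CD49- was above 0 for 37 genes and below 0 for 53, against 48% and 52% of all genes. Its median was -0.06 (log2), against -0.03 over all genes. The median was 0.03 within MZ1484, where each group has 1 sample, and -0.13 within MZ1468. Of the 94 genes, 38 had several probe sets above the background bound in all samples. The CD49 difference had the same sign on all of them for 28 (73.7%), against 63.2% of all such genes. In bulk samples like these, fewer cells of a type and less RNA per cell cannot be told apart.

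Cox6b2, the form of a complex IV subunit known from testis, showed the largest CD49 difference of the 90 genes. It had 12.91, 12.27 and 12.77 in CD49- samples and 8.87, 8.26 and 10.94 in CD49+ samples. The linear signals were 7646, 4897 and 6941 against 441, 279.8 and 1940, so every CD49- sample was above every CD49+ sample, and all 6 lay above the background bound. The difference was -3.29 ± 1.01 (SE), 9.77-fold on the log2(signal + pseudocount) scale, with an unadjusted p of 0.013 and an adjusted p of 0.9998 in limma. It was -4.04 within MZ1484 and -2.92 within MZ1468. Cox6b2 has 1 probe set here. The broadly expressed form Cox6b1 did not separate the groups, with 14.37, 14.45 and 14.25 in CD49- and 14.31, 13.99 and 14.25 in CD49+ samples.

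Ndufa5, an accessory subunit of the matrix arm of complex I, differed by far less. It had 14.84, 14.97 and 14.89 in CD49- samples and 14.20, 14.67 and 14.57 in CD49+ samples, and the groups did not overlap. The difference was -0.42 ± 0.17 (SE), 1.34-fold, with an unadjusted p of 0.039 and an adjusted p of 0.9998 in limma. Its second probe set gave -0.37 ± 0.22, and there the groups came close to overlapping, since the lowest CD49- value was 14.59 and the highest CD49+ value 14.58.

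The groups did not overlap for 8 of the 90 genes (8.89%), against 8.12% of all genes. Of these, 7 were lower in CD49+ samples, against 4.39% of all genes, and 1 was higher, against 3.74%. The higher one was Ndufaf2, with 16.84, 16.10 and 16.73 in CD49- and 17.77, 17.20 and 17.11 in CD49+ samples (difference 0.81 ± 0.37 SE). Besides Cox6b2 and Ndufa5, the lower ones were the complex I accessory subunits Ndufa8, Ndufa9, Ndufa10 and Ndufb7 and the complex IV subunit Cox5b. The difference was -0.65 ± 0.39 for Ndufa8, -1.02 ± 0.75 for Ndufa10, -0.29 ± 0.17 for Ndufb7 and -0.18 ± 0.13 for Cox5b (SE). Cox5b was separated by a narrow margin, with a lowest CD49- signal of 33250 and a highest CD49+ signal of 33170. On the brightest of its other tested probe sets the groups stayed apart (14.91 against 14.85). On the rest they overlapped, for instance with a lowest CD49- value of 14.54 and a highest CD49+ value of 14.65. The second probe set of Ndufb7 overlapped too (13.74 against 13.86). The CD49+ mean was lower on all of these probe sets. Ndufa9, which lies where the arms of complex I meet, had 13.14, 13.18 and 12.53 in CD49- and 7.85, 12.36 and 12.23 in CD49+ samples. Most of its difference of -2.14 ± 1.26 (SE) came from the single low value in CD49+ replicate 1, and within MZ1468 the difference was -0.56.

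In complex I, 12 of the 34 genes had a difference above 0 and 22 below, with a median of -0.11, and 1 (Ndufa5) had an unadjusted p under 0.05. Its core subunits carry the flavin and the iron-sulfur clusters. Ndufs7 and Ndufs8, iron-sulfur subunits next to the ubiquinone site, differed by -0.08 ± 0.19 and -0.27 ± 0.21 (SE) and ranged over the 6 samples from 14.30 to 14.74 and from 13.91 to 14.53. Ndufv2 ranged from 12.25 to 13.47 with a difference of -0.29 ± 0.49. Its other probe sets gave -1.08 ± 1.11 and -0.41 ± 0.68. Ndufs3 had 13.67, 14.16 and 14.16 in CD49- and 12.27, 14.17 and 14.20 in CD49+ samples, so that only CD49+ replicate 1 stood over 1 below the rest. Ndufs1, the largest iron-sulfur subunit, varied most among the core genes, with 6.67, 10.54 and 11.07 in CD49- and 13.21, 12.39 and 10.18 in CD49+ samples (difference 2.50 ± 1.49 SE). Its groups overlapped, and its value in CD49- replicate 1 lay under the background bound.

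In complex II, Sdha, the flavoprotein that oxidises succinate, ranged from 13.54 to 14.71 with a CD49 difference of 0.21 ± 0.34 (SE). A second Sdha probe set above the bound in all 6 samples gave 0.01 ± 0.56. Within MZ1484 these 2 probe sets went opposite ways, with 1.17 on the first and -0.97 on the second. Sdhb, which carries the iron-sulfur clusters of complex II, ranged from 12.64 to 13.71 with a difference of 0.20 ± 0.38. The membrane anchor Sdhc was lower in signal and more variable, with 6.39, 11.20 and 11.18 in CD49- and 5.65, 8.44 and 10.72 in CD49+ samples. The other anchor, Sdhd, was not tested and lay above the background bound only in CD49+ replicate 1, where its signal was 160.5 against 11.5 to 35.0 in the other 5 samples.

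CD49 differences were smallest in complex III, with a median size of 0.06. The 8 genes split into 4 above and 4 below 0, with a median of 0.00, and 7 of them had differences between -0.08 and 0.11. Uqcrc1 and Uqcrc2, its core proteins, differed by 0.02 ± 0.41 and 0.11 ± 0.19 (SE). A second probe set of Uqcrc2 gave -0.45 ± 0.83. On the probe sets that stood for the 8 genes, the exception was Uqcrfs1, the Rieske iron-sulfur protein. It had 14.19, 13.14 and 13.53 in CD49- and 10.34, 13.49 and 13.59 in CD49+ samples. Its difference of -1.15 ± 0.89 came from CD49+ replicate 1 alone, since within MZ1468 it was 0.20. Uqcrfs1 has 1 probe set here.

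In complex IV, the 16 tested genes split into 8 above and 8 below 0, with a median of -0.05. Several of its subunits come in a broadly expressed form and a form known from particular tissues. The broad forms were bright and steady on the probe sets that stood for them: Cox4i1 ranged from 13.89 to 14.57, Cox7a2 from 15.10 to 15.48 and Cox8a from 14.40 to 14.96. A second tested probe set of Cox8a varied more, from 11.97 to 13.83, and that of Cox7a2 ranged from 14.77 to 15.27. Of the restricted forms, Cox8b, Cox8c and Cox7b2 lay at or under the background bound in all 6 samples on every probe set. The MOE430B probe set that stood for Cox6a2 did so too, but its MOE430A probe set lay above the bound in all 6, with signals of 395.2, 359.3 and 248.3 in CD49- and 615.7, 462.5 and 444.9 in CD49+ samples. There the groups did not overlap, with a difference of 0.58 ± 0.80 (SE) that did not pass the threshold. Cox4i2, known from lung and from hypoxia, lay above it in 3 samples, with 5.23, 5.72 and 9.93 in CD49- and 8.48, 5.83 and 9.87 in CD49+ samples. Cox7a1, the heart and muscle form, lay above it in all 6, with 7.14, 11.16 and 8.72 in CD49- and 7.72, 8.87 and 10.47 in CD49+ samples, and its difference was 0.02 ± 1.33 (SE). Neither Cox4i2 nor Cox7a1 separated the groups. Cox5a had a difference of 0.35 ± 0.26, Ndufa4 one of 0.11 ± 0.16, and Ndufa4l2, known as induced by hypoxia, one of -0.55 ± 0.56 (SE).

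In complex V, 6 of the 17 genes had a difference above 0 and 11 below, with a median of -0.05 and a range of -0.54 to 0.20. In the catalytic head, Atp5a1 differed by 0.20 ± 0.21, the catalytic beta subunit Atp5b by -0.27 ± 0.33 and Atp5c1 by -0.05 ± 0.11 (SE). Atp5d, the delta subunit of the central stalk, had the largest difference of the 17, -0.54 ± 0.64. Its second probe set gave -1.355 ± 0.86. Atp5g1, Atp5g2 and Atp5g3 encode the same mature ring protein from 3 genes, and none separated the groups, with differences of 0.05 ± 0.17, -0.06 ± 0.43 and -0.12 ± 0.16 (SE). Among the assembly factors, 5 had a difference above 0 and 7 below, with a median of -0.16 and standard errors that reached 2.21 (Ndufaf3). Sdhaf2, which attaches the flavin to Sdha, had the largest, -2.50 ± 1.26 (SE).

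**Figure D3:**
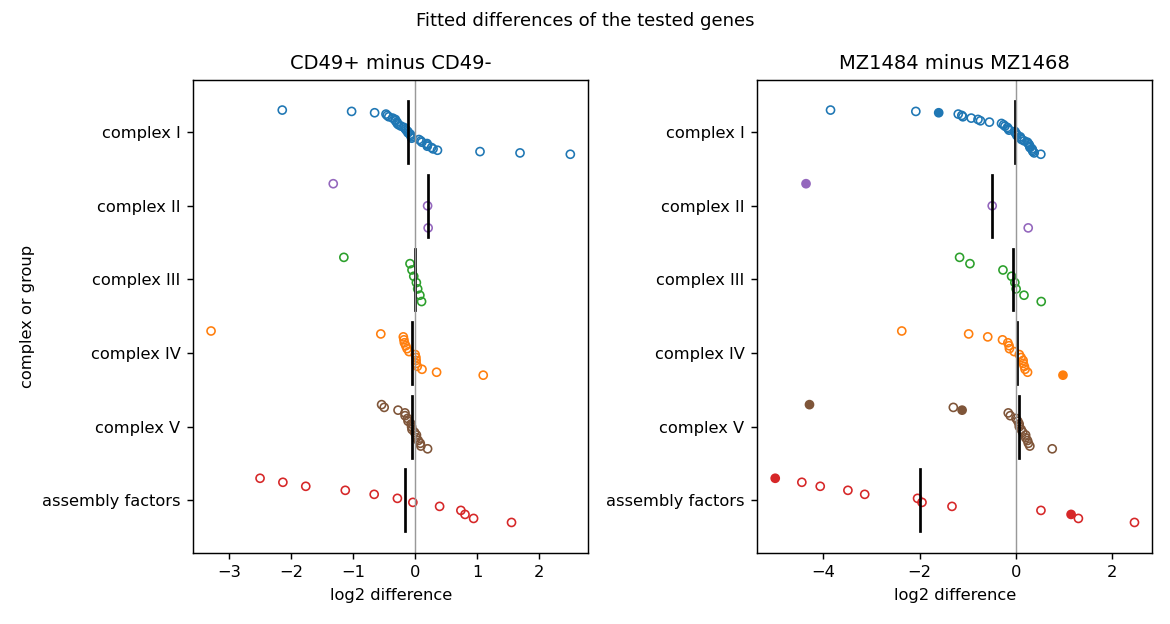
Fitted log2 differences (horizontal axes) of the 90 tested genes by complex, CD49+ minus CD49- on the left and MZ1484 minus MZ1468 on the right. Each circle is a gene, filled where the adjusted p was at or under 0.05, and black bars are medians; on the left 0 circles are filled and most lie close to 0, and on the right 7 are filled, with the assembly factors spread from -5.0 to 2.46.

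**Figure D4:**
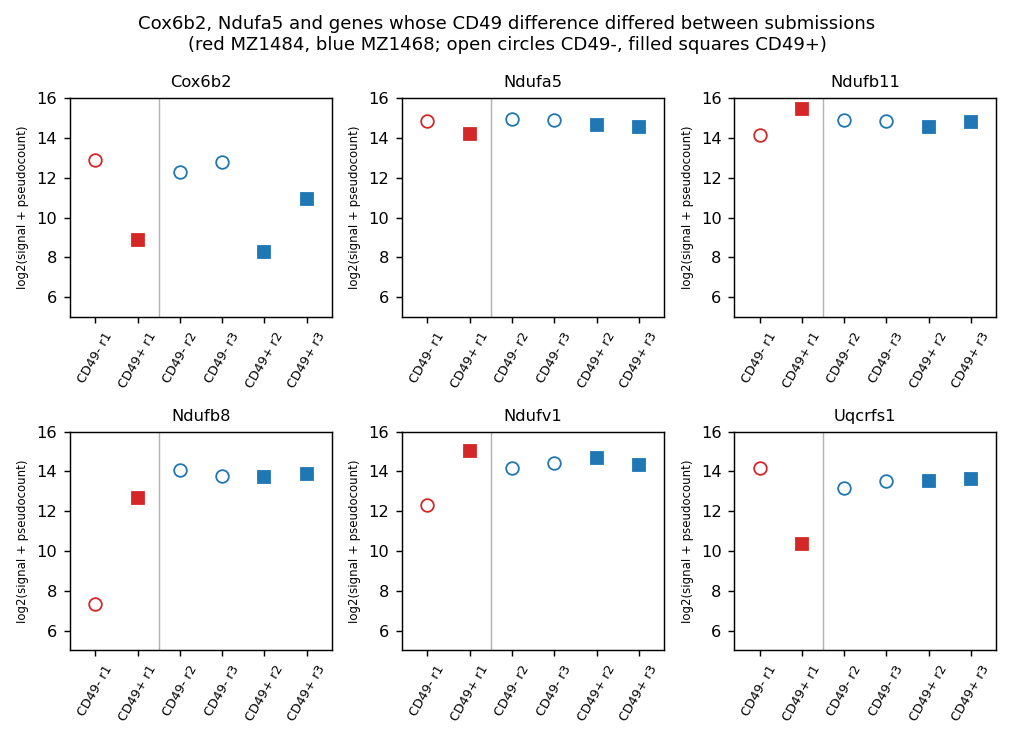
Values of 6 genes in each sample as log2(signal + pseudocount) on MOE430A, with MZ1484 samples in red, MZ1468 samples in blue, open circles for CD49- and filled squares for CD49+. Cox6b2 is lower in every CD49+ sample, Ndufa5 lies between 14.20 and 14.97, and Ndufb11, Ndufb8, Ndufv1 and Uqcrfs1 differ between the groups mainly within MZ1484.

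Differences between the submissions had a median size of 0.28 (log2) over the 90 genes, against 0.19 between the CD49 groups. Over all genes these sizes were 0.91 and 0.53, so the larger submission difference was not particular to the 90. The 2 submissions were also scanned on different days, so submission and scan day cannot be told apart. With the CD49 group in the model, 7 of the 90 genes passed an adjusted p of 0.05 in limma, against 4.05% of all genes. Of these, 5 were lower in MZ1484 (5.56%, against 3.35% of all genes) and 2 higher (2.22%, against 0.703%). With each array centred on its median the split was 3 lower and 2 higher, and with quantile normalization 6 lower and 1 higher. At an unadjusted p under 0.05 there were 21 (23.3%, against 22.7%), of which 7 were higher (against 7.17%) and 14 lower (against 15.5%). The submissions did not overlap for 29 genes (32.2%, against 33.3%), of which 11 were higher (against 13.5%) and 18 lower (against 19.8%). The difference was above 0 for 43 genes (47.8%, against 43.7%) and below 0 for 47 (52.2%, against 56.3%). Apart from the adjusted calls, these shares were close to those of all genes. The calls rest on few samples: 0 were called when CD49- replicate 2, CD49- replicate 3 or CD49+ replicate 3 was left out (20, 18 and 17 at an unadjusted p under 0.05 in limma), and 16 were made without CD49- replicate 1. The median difference over the 90 genes was -0.02 against -0.20 over all genes. It was 0.24 against -0.05 with arrays centred on their medians and -0.28 against 0.00 with quantile normalization, so its place relative to all genes depends on the scaling.

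Among the 7, Atp5mpl, a small proteolipid bound to the ATP synthase, fell in MZ1484 on its 1 probe set here. It had 9.47 and 8.24 in the MZ1484 samples and 13.13, 13.29, 13.10 and 13.06 in the MZ1468 samples. The MZ1484 samples were far below the 4 others, which lay close together, and the difference was -4.29 ± 0.59 (SE, 19.6-fold, adjusted p = 0.022 in limma). Atp5o, the subunit that links the catalytic head to the peripheral stalk, had 13.60 and 13.19 against 14.51, 14.57, 14.52 and 14.47. Its difference was -1.12 ± 0.18 (SE, 2.18-fold, adjusted p = 0.027 in limma), and its other probe set gave -1.83 ± 0.22. Both probe sets thus placed both MZ1484 samples below all MZ1468 samples. Ndufb2, a small accessory subunit of the membrane arm of complex I, had 13.55 and 12.56 against 14.58, 14.72, 14.63 and 14.72. Its difference was -1.61 ± 0.26 (SE, 3.05-fold, adjusted p = 0.029 in limma). A second MOE430A probe set gave -2.62 ± 0.47, and one on MOE430B, above the bound in 1 sample, gave 0.46 ± 0.70.

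The probe sets that stood for Sdhc and Ndufaf7 lay at or under the background bound in both MZ1484 samples and above it in the 4 MZ1468 samples. Sdhc had 6.39 and 5.65 against 11.20, 11.18, 8.44 and 10.72, at least 9.08-fold higher in MZ1468 on this probe set (adjusted p = 0.041 in limma). A second, dimmer probe set of Sdhc did not separate the submissions, with signals of 250.9 and 45.35 in MZ1484 and 278.6, 41.94, 139.5 and 147.9 in MZ1468 samples. It lay above the bound in 4 samples, CD49- replicate 1 among them, and gave -0.15 ± 0.82 (SE), so the probe sets disagree. Ndufaf7, a methyltransferase that acts on a core subunit of complex I, had 6.21 and 5.58 against 11.93, 10.53, 9.63 and 11.49, at least 12.9-fold higher in MZ1468 (adjusted p = 0.032 in limma). It has 1 probe set here.

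Cox7a2l and Sdhaf4 rose in MZ1484. Cox7a2l, known for joining complexes III and IV into supercomplexes, had 14.99 and 15.11 in MZ1484 and 14.08, 14.33, 13.88 and 14.02 in MZ1468 samples. Its difference was 0.97 ± 0.17 (SE, 1.97-fold, adjusted p = 0.030 in limma), and its other 2 probe sets gave 0.82 ± 0.17 and 0.59 ± 0.19. Sdhaf4, which binds flavinylated Sdha, had 14.32 and 14.84 against 13.24, 13.31, 13.79 and 13.42, a difference of 1.14 ± 0.22 (SE, 2.21-fold, adjusted p = 0.036 in limma). Sdhaf4 has 1 probe set here. The MZ1484 samples lay above every MZ1468 sample for both genes. All 7 kept their direction under every alternative tried.

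**Figure D5:**
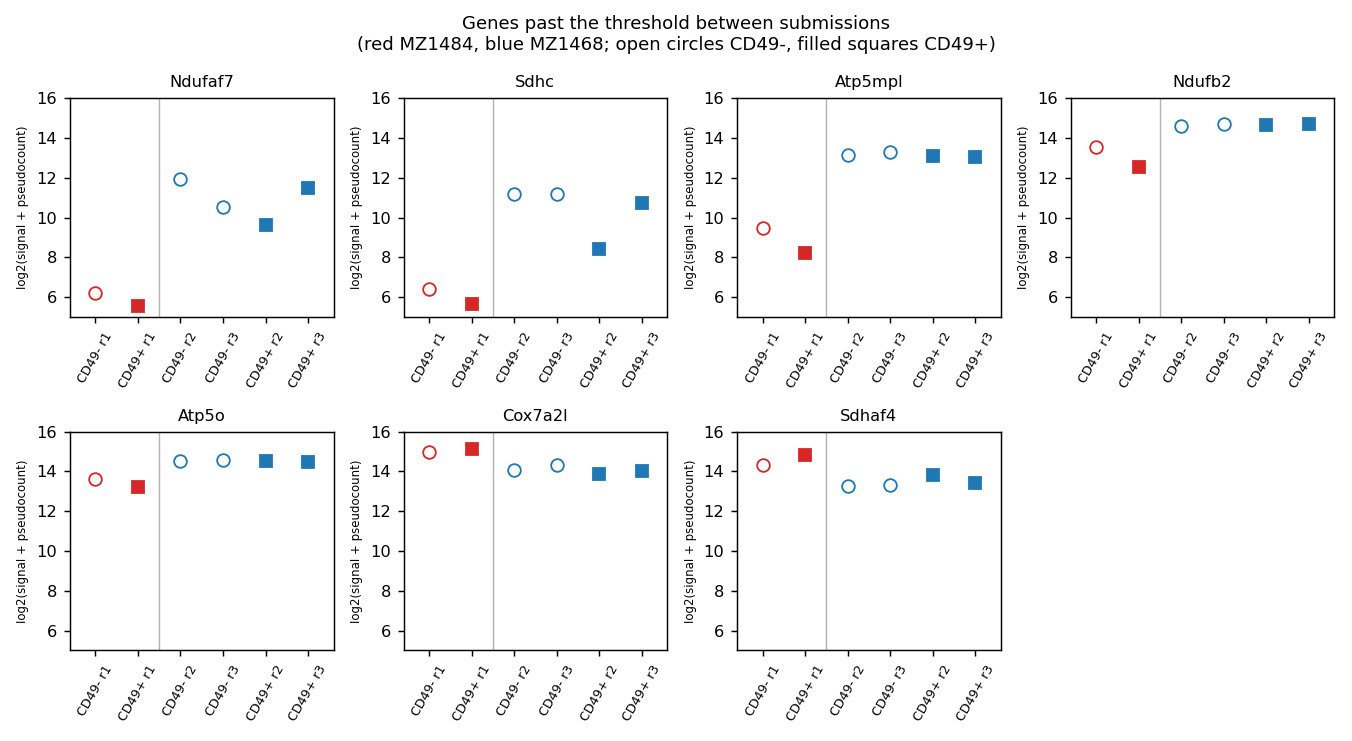
Values of the 7 genes past the threshold between submissions, as log2(signal + pseudocount) in each sample, with MZ1484 samples in red, MZ1468 samples in blue, open circles for CD49- and filled squares for CD49+. Both MZ1484 samples lie below all MZ1468 samples for Ndufaf7, Sdhc, Atp5mpl, Ndufb2 and Atp5o and above them for Cox7a2l and Sdhaf4.

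By complex, the median difference MZ1484 minus MZ1468 was -0.02 in complex I, -0.50 in complex II, -0.06 in complex III, 0.01 in complex IV and 0.07 in complex V. It was -2.0 for the assembly factors, of which 8 of 12 were below 0 and 5 lay below every MZ1468 sample in both MZ1484 samples (Ndufaf5, Ndufaf6, Ndufaf7, Ndufaf8 and Sdhaf1). Over all genes the median was -0.20, with 56.3% below 0 and 19.8% below every MZ1468 sample. Values over 1 below a gene's own mean fell mostly in the MZ1484 samples. That mean covers 2 MZ1484 and 4 MZ1468 samples, so this count favours the smaller submission. Of the 90 genes, 13 lay over 1 below their own mean in CD49- replicate 1 and 18 in CD49+ replicate 1, against 1, 0, 5 and 0 in the MZ1468 samples CD49- replicate 2, CD49- replicate 3, CD49+ replicate 2 and CD49+ replicate 3. Over all genes the shares were higher in every sample, 27.9% and 30.8% for MZ1484, against 5.38% to 19.0% for MZ1468. By lowest value, the MZ1468 sample CD49+ replicate 2 was lowest for 28 of the 90 genes. CD49+ replicate 1 was lowest for 26 and CD49- replicate 1 for 19, against 3, 8 and 6 in the remaining MZ1468 samples. In 17 measured genes of G2 phase and mitosis the submissions were split: 5 and 3 lay above the bound in the MZ1484 samples and 14 in each MZ1468 sample. Their summed signal was 9470 and 21900 against 66700 to 154000. All 14 that were tested had a lower mean in MZ1484 and 8 passed the threshold. The haematopoietic stem cell markers had a summed signal of 92900 and 127000 in MZ1484 against 23400 to 37800 in MZ1468, and 9 of the 10 tested had a higher mean in MZ1484. For the granulocyte and monocyte markers it was 36600 and 52100 against 8020 to 21000, with 5 of 6 higher. In both lists 0 genes passed the threshold between submissions. The part of these lists in the values of the respiratory genes was not tested.

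The CD49 difference itself differed between submissions for 4 of the 90 genes in limma (interaction term, adjusted p at or under 0.05), against 1.36% of all genes. MZ1484 has only 1 sample per group, so the spread in this test comes from the MZ1468 samples alone. The lone MZ1484 samples are assumed to vary like them, and a single stray array there can give a call. The term, the CD49 difference in MZ1484 minus that in MZ1468, was above 0 for 3 of them (against 0.525%) and below 0 for 1 (against 0.83%). At an unadjusted p under 0.05 there were 18 (20%, against 18.3%), 11 above 0 (against 9.13%) and 7 below 0 (against 9.16%). Over the 90 genes the term was above 0 for 58 and below 0 for 32 (52.3% and 47.7% of all genes). Ndufb8, an accessory subunit of the membrane arm of complex I, had 7.32 in CD49- replicate 1 and 12.66 in CD49+ replicate 1, and 13.70 to 14.06 in the 4 MZ1468 samples. Its CD49 difference was 5.35 in MZ1484 and -0.13 in MZ1468 (difference 5.48 ± 0.57 SE). Its MOE430B probe set gave -0.44 in MZ1484. There it lay under the background bound in both samples (8.85 and 8.40), so that value cannot speak to the CD49 difference. Ndufv1, which binds NADH and the flavin, had 12.30 and 15.01 in CD49- and CD49+ replicate 1, against 14.16 to 14.68 elsewhere (difference 2.49 ± 0.34 SE, adjusted p = 0.043 in limma). All 3 of its probe sets were lowest in CD49- replicate 1. Ndufb11, another accessory subunit of the membrane arm, had 14.13 and 15.46 against 14.53 to 14.91 (difference 1.56 ± 0.23 SE, adjusted p = 0.045 in limma). Uqcrfs1, given above, went the other way (difference -4.04 ± 0.49 SE, adjusted p = 0.033 in limma). In each of these genes the MZ1468 samples lay close together, and 1 or both MZ1484 samples stood apart.

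Other genes of the pathway, from lists chosen by function, gave few calls. Of 4 measured subunits and partners outside the symbol rule, 0 were called by CD49 in limma, and 0 had an unadjusted p under 0.05. Cyc1, cytochrome c1 of complex III, passed the threshold between submissions, with signals of 1707 and 750.6 in MZ1484 and 7830 to 11790 in MZ1468 (log2 difference -3.02 ± 0.55 SE, adjusted p = 0.033 in limma). Cycs, cytochrome c, had 8036 and 14400 against 20250 to 24110, which did not pass. The mitochondrially encoded complex I subunit ND5 had 12940 and 21370 against 6532 to 12900, so the submissions did not overlap, by a narrow margin, and it did not pass the threshold (adjusted p = 0.227 in limma). Among 32 tested assembly factors outside the rule, 0 were called by CD49 and 1 had an unadjusted p under 0.05, Sco1, a copper chaperone of complex IV. Its signals on MOE430B were 18830, 2904 and 3925 in CD49- samples, and 247.5, 828.6 and 1210 in CD49+ samples, where all 3 lay at or under the background bound (unadjusted p = 0.015 in limma). Of the same 32, 1 passed between submissions, Pet100, whose probe set used here was under the bound in both MZ1484 samples.

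Neither the 13 genes of the tricarboxylic acid cycle nor the 11 carriers and electron-entry genes had a call in limma in either comparison, and none had an unadjusted p under 0.05 by CD49. Citrate synthase (Cs) had signals of 14740, 3061 and 4077 in CD49- and 989.1, 2248 and 3835 in CD49+ samples, which overlap. Of 13 tested regulators of mitochondrial biogenesis, 0 were called by CD49 (0 at an unadjusted p under 0.05 in limma), and 2 were lower in MZ1484. These were Tfb1m, a mitochondrial transcription factor (40.43 and 36.35 against 1279 to 2969, adjusted p = 0.026 in limma), and Twnk, the mitochondrial DNA helicase (242.6 and 293.6 against 18440 to 50250, adjusted p = 0.044 in limma). The probe sets used for both lay under the background bound in the MZ1484 samples. Tfam, which packages mitochondrial DNA, had 12460, 8803 and 9226 in CD49- and 5520, 2728 and 10090 in CD49+ samples, which overlap.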

How the data were processed

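Per the submitters' processing notes, MAS5 made the deposited signals, which are linear; the sources used here do not give its version or settings. Trimmed means were about 1501 on all 12 arrays, so no scaling was added. The scan records deposited per array (the other files) were read only for scan days, stations and lots. Symbols came from the platform annotation, and all 94 genes matched RefSeq. Log2 values were computed from the deposited signals with the 25th percentile of each design as pseudocount. The designs, scaled separately by the authors, were fitted separately with limma 3.58.1 (R 4.3.3, lmFit, eBayes with trend), with Benjamini-Hochberg adjustment at 0.05, over probe sets at or above their design's median mean. SE is the moderated standard error. Only the CD49 fit was tested on simulated data, so the submission and interaction fits were not. The simulated noise was equal at all signal levels and held no submission effect, unlike the real values. A fold of a gene at or under the bound on all arrays of a group is "at least", against the higher of bound and signal.

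The members and lists were chosen with earlier results of these data known. Genes named are those called, the 3 smallest p per complex and comparison, the core subunits, the isoform families, and the least and most variable members. Genes whose CD49 groups do not overlap, whose interaction passed, or whose value was low in single samples were chosen after their values were seen. Replicate numbers were given in accession order and pair nothing. The main CD49 fit had no term for submission, which served as a block only in an alternative fit. Alternatives were the pseudocount, filter, scaling, probe set choice, trend, block, and leaving out each sample. Proteins were not used here. The number of arrays limits the precision, and arrays give no read depth.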

Additional observations from a re-analysis of the deposited data

Results flagged for a closer look

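In the 4 MZ1468 samples, which hold 2 CD49- and 2 CD49+ samples, 1 sample stood far from the others for 2 of the 54 genes tested in this way; chance gives about 1 in 20. Ndufaf6, an assembly factor of complex I, was lowest in CD49+ replicate 2 with 11.73 against 13.24 in the nearest sample, a gap of 0.864 of the whole range. Uqcrc1, a core protein of complex III, was highest in CD49+ replicate 3 with 14.46 against 14.14, a gap of 0.846 of the range.

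The CD49 difference differed between the submissions, by the interaction term in limma, for 4 genes. The CD49+ minus CD49- difference in MZ1484 minus that in MZ1468 was 1.56 for Ndufb11, 5.48 for Ndufb8, 2.49 for Ndufv1 and -4.04 for Uqcrfs1 (log2). MZ1484 has 1 sample per group, so each value rests on 2 arrays there, the spread comes from the MZ1468 samples alone, and a single stray MZ1484 array can give such a call.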

How the results depend on the processing

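The number of genes called between CD49 groups in limma was 0 under every alternative, with 1 to 4 at an unadjusted p under 0.05. Submission as a replicate block gave 0 called and 4 at an unadjusted p under 0.05, against 2 without it. The median CD49 difference of -0.06 became 0.053 with arrays centred on their medians, and was -0.100 to -0.005 when each sample was left out. The 7 calls between submissions became 1 with no filter and 3 without the mean-variance trend in limma, and ranged from 0 to 16 when each sample was left out (0 without CD49- replicate 2, CD49- replicate 3 or CD49+ replicate 3, with 20, 18 and 17 at an unadjusted p under 0.05; 16 without CD49- replicate 1). The median submission difference of -0.02 became 0.24 with median centring and -0.28 with quantile normalization, and was -0.068 to 0.097 when each sample was left out (0.097 without CD49- replicate 1). The causes were not tested. No called gene changed direction. Arrays near the background bound limit the folds of Sdhc, Ndufaf7 and other dim genes.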
